A study of Sus scrofa with 6 samples.

Results

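The genes described here carry fatty acids into the heart muscle cell, activate them, pass them into the mitochondrion through the carnitine shuttle, oxidize them, or store them as triglyceride. The 43 genes were listed by symbol for their known roles, with earlier results of these data already known. Of the 43, 40 have a row among the 13288 genes of the deposited table. SLC22A5, ECI1 and ACACB were not analysed here. RNA was sequenced from the ventricular tissue of male Tibetan minipigs at week 12 after surgery. The sham group (n = 3) underwent surgery without constriction, and the DAC group (n = 3) underwent descending aortic constriction, which loads the left ventricle with pressure. All animals were of the same breed and sex, and each sample was 1 minipig. The labels do not say from which ventricle the tissue came.

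The adult heart takes most of its energy from long-chain fatty acids. Lipoprotein lipase frees them from circulating triglyceride at the vessel wall, membrane proteins and binding proteins bring them into the cell, and acyl-CoA synthetases couple them to coenzyme A. The carnitine shuttle, of which the carnitine palmitoyltransferases are part, passes them into the mitochondrion. There, beta-oxidation shortens the chain by an acyl-CoA dehydrogenase, a hydratase, a hydroxyacyl-CoA dehydrogenase and a thiolase in turn. The electron-transferring flavoprotein passes on the electrons. Fatty acids not burned at once are held in lipid droplets, from which lipases release them. Pressure overload of the heart is widely studied for its effect on this pathway.

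Values are FPKM, fragments scaled to transcript length and to the mapped fragments of the sample, and how many reads stand behind each is unknown, so that precision can be read only from the spread between minipigs. Cardiomyocyte markers were abundant, MYL2 and TNNT2 most of all, with MYL2 at 4525 ± 167 FPKM in sham and 4688 ± 473 FPKM in DAC minipigs (SD, n = 3 each). The adipocyte marker ADIPOQ was at 0.0918 ± 0.0747 FPKM and 0.279 ± 0.282 FPKM in the same order (SD, n = 3 each), and was too low to be tested. The 13 genes of the mitochondrial genome took 24.0% to 25.3% of all FPKM in each sham minipig, 27.1% to 27.2% in DAC replicates 4 and 6, and 32.8% in DAC replicate 5. In bulk tissue, fewer cells of a type and less RNA per cell cannot be told apart.

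For the comparison, the log2 of FPKM + 1 was fitted with limma across the genes that reached 1 FPKM in 3 or more minipigs, which left 11029 genes and 39 of the fatty acid genes. UCP3 was too low to be tested. A fold change on this scale understates the change of genes with low FPKM. As in the methods of the study, a differentially expressed gene (DEG) had an unadjusted P under 0.05. Of the 39 genes, 6 were DEGs, against 8.51% of all genes tested, and 5 of these were downregulated, which is 12.8% against 5.27% of all genes tested. The downregulated genes were ANGPTL4, HADH, DECR1, ACADS and PNPLA2. UCP2 was the only upregulated DEG among the 39, which is 2.56% against 3.25% of all genes. No gene of the table reached an adjusted P under 0.05 with Benjamini-Hochberg adjustment in limma, where 939 had an unadjusted P under 0.05.

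Of the 6 DEGs, 3 belonged to oxidation and 1 each to uptake, storage and uncoupling. All DAC samples lay below all sham samples in 5 of the 39 genes, against 8.91% of all genes tested, and above them in 2 genes, against 6.01%. Together the groups did not overlap in 7 of the 39 genes, against 14.9% of all genes. The mean of the logs was lower in the DAC group in 25 of the 39 genes, or 64.1%, against 53.4% of all genes, and higher in 14, against 46.6%. The median log2 fold change was -0.074 over the 39 genes and -0.016 over all genes, and the median standard error of a fatty acid gene was 0.17. By step, this median was -0.22 for the 7 storage genes, -0.12 for the 4 carnitine shuttle genes, -0.11 for the 8 uptake genes, -0.073 for the 3 activation genes and -0.024 for the 14 oxidation genes. These step medians moved when 1 minipig was left out. Without sham replicate 3 the storage median was -0.056 and the uptake median 0.061, and without sham replicate 2 the activation median was 0.070. Leaving out DAC replicate 4 gave a carnitine shuttle median of -0.020, and leaving out DAC replicate 5 gave -0.27. For the oxidation genes the median was 0.0012 under median scaling, 0.056 under quantile normalization, 0.021 with the mitochondrially encoded genes left out, 0.027 when DAC replicate 6 was left out and -0.11 when DAC replicate 5 was. The median over the 39 genes was -0.19 without DAC replicate 5, and with 1 sample left out in turn between 1 and 7 of the genes were downregulated DEGs, the fewest without sham replicate 3 and the most without sham replicate 2.

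**Figure D1:**
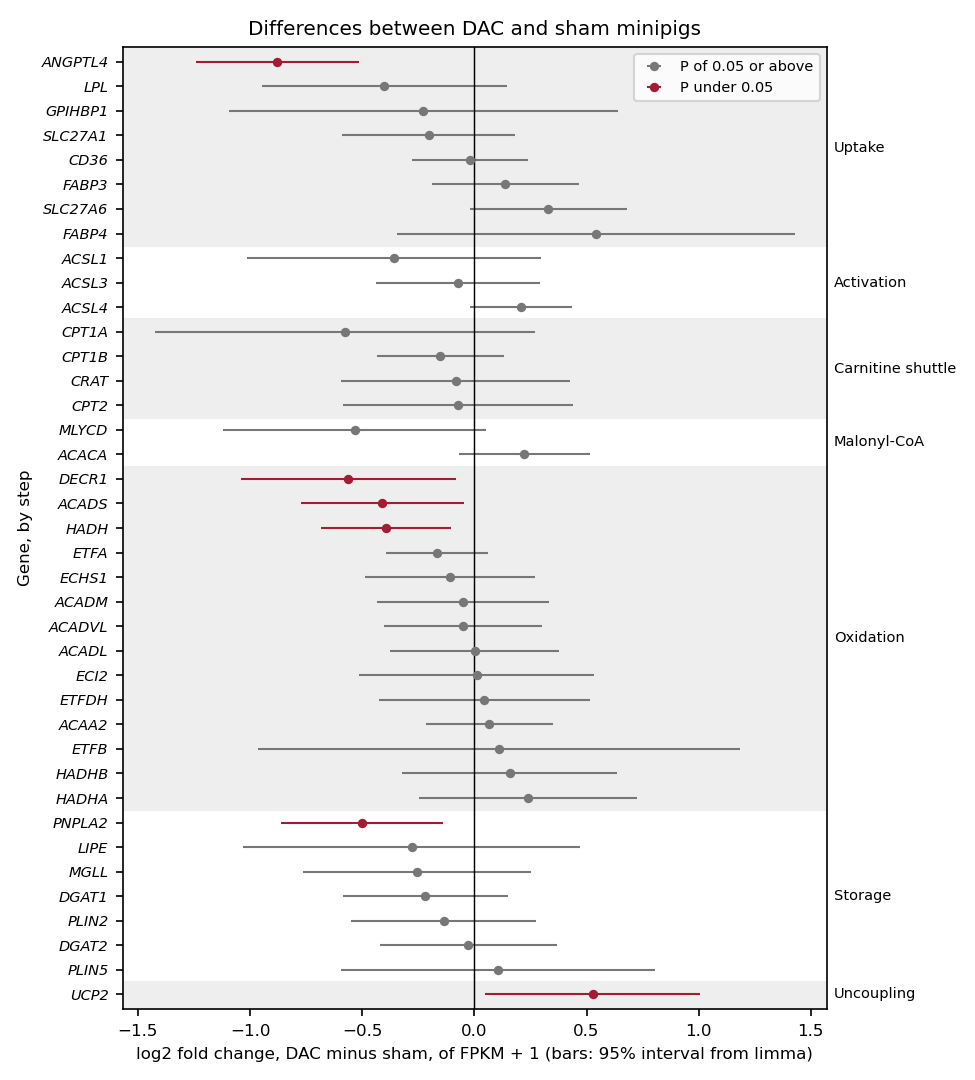
Log2 fold change of each tested fatty acid gene (x axis, DAC minus sham on the log2(FPKM + 1) scale) by step (y axis), with the 95% interval from limma as bars and genes with an unadjusted P under 0.05 in red. ANGPTL4 has the lowest value at -0.88, and most intervals cross 0.

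Uptake held both the most abundant gene and the largest change. ANGPTL4, a secreted inhibitor of lipoprotein lipase, fell in all DAC minipigs. The gene (ENSSSCG00000013599) is at chromosome 2 from 70904531 to 70912974 on the genome build susScr11. ANGPTL4 was at 9.75, 12.7 and 10.99 FPKM in sham replicates 1 to 3, and at 6.005, 4.50 and 6.40 FPKM in DAC replicates 4 to 6. The highest DAC sample was below the lowest sham sample, and the mean fell by 49.5%. The log2 fold change was -0.88 ± 0.15 (SE), with a Benjamini-Hochberg adjusted P = 0.335 in limma, and ANGPTL4 ranked 21 among the 11029 genes by P. Over the alternatives of processing and with each sample left out, it stayed between -0.98 and -0.75 and passed the threshold in all 14 of these fits.

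LPL, the lipoprotein lipase itself, was at 182, 93.8 and 136 FPKM in the sham samples and at 111, 97.7 and 91.3 FPKM in the DAC samples. The groups overlapped through sham replicate 2, and the log2 fold change was -0.40 with a 95% interval from -0.95 to 0.14. Without sham replicate 2 it was -0.65 and passed the threshold. GPIHBP1, which anchors the lipase to capillary endothelium, was at 8.63, 11.4 and 27.7 FPKM in the sham samples and between 11.3 and 12.3 FPKM in the DAC samples. Its log2 fold change was -0.23, and 0.24 without sham replicate 3, the sample with the highest value. LMF1, needed for the maturation of the lipase and not among the 43 genes, was also a downregulated DEG, at 6.21 ± 0.470 FPKM in sham and 4.86 ± 0.448 FPKM in DAC minipigs (SD, n = 3 each).

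Of the proteins at the muscle cell membrane, none was a DEG in all 6 samples. CD36, the main fatty acid translocase, was at 47.0, 50.4 and 49.5 FPKM in the sham samples and at 42.96, 50.2 and 52.2 FPKM in the DAC samples. The spread of CD36 over the 6 minipigs was the smallest of the 39 genes, with a highest value 1.21 times the lowest. The 95% interval of its log2 fold change ran from -0.28 to 0.24. SLC27A1, a fatty acid transport protein, was at 22.9 ± 4.91 FPKM in sham and 19.5 ± 0.630 FPKM in DAC minipigs (SD, n = 3 each). Without sham replicate 2, SLC27A1 had a log2 fold change of -0.38, which passed the threshold. SLC27A6, another transport protein, was near the lower limit of the test, at 1.48, 1.16 and 1.24 FPKM in the sham samples and 1.96, 2.33 and 1.42 FPKM in the DAC samples. Its log2 fold change was 0.33 with a 95% interval from -0.02 to 0.68, and without DAC replicate 6 it was 0.46 and passed the threshold.

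FABP3, the fatty acid binding protein of heart muscle, was the most abundant of the fatty acid genes. It stood at rank 52 of the 11029 genes by mean FPKM, at 472 ± 48.7 FPKM in sham and 521 ± 70.8 FPKM in DAC minipigs (SD, n = 3 each). The 95% interval of its log2 fold change was from -0.19 to 0.47. FABP4, the binding protein of adipocytes and capillary endothelium, ranged from 4.62 to 12.04 FPKM in the sham samples and from 9.18 to 19.8 FPKM in the DAC samples. FABP4 had a log2 fold change of 0.54 with a 95% interval from -0.35 to 1.43. The 12 tested endothelial markers, of which VWF and ESAM were the most abundant, held 3 downregulated DEGs, or 25% against 5.27% of all genes. They also held 2 upregulated DEGs, or 16.7% against 3.25%. Their median log2 fold change was -0.24, with 9 of the 12 below 0 and 3 above. Their summed level was between 203 and 290 FPKM in the sham samples and between 173 and 258 FPKM in the DAC samples. Of the 12 adipocyte markers listed, 1 was tested, CFD, with a log2 fold change of 0.023. CFD was at 75.1 FPKM in sham and 75.9 FPKM in DAC minipigs. ADIPOQ, CIDEC, SLC7A10 and THRSP had means below 1 FPKM in both groups and were not tested, and each had the higher mean in DAC. Adipocyte content cannot be read from CFD alone. The part of either cell type in the values of LPL, GPIHBP1 and FABP4 was not tested.

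**Figure D2:**
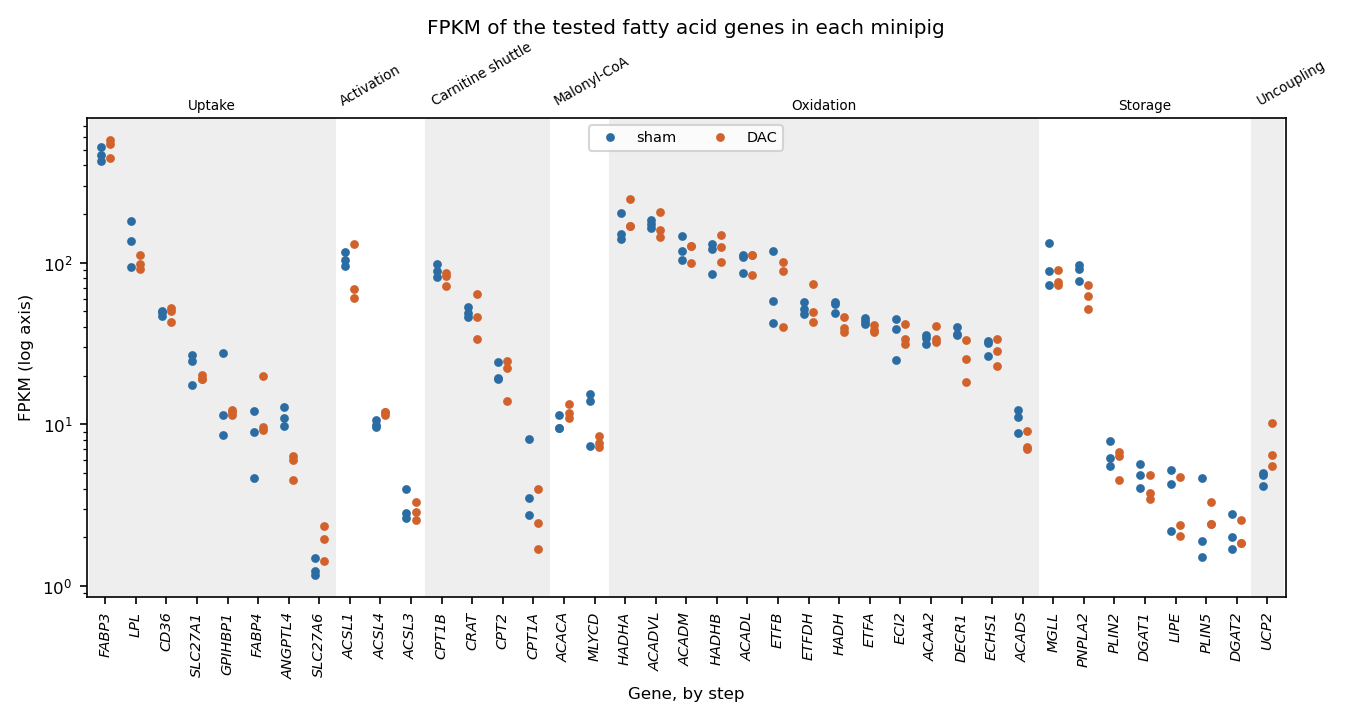
FPKM of the 39 tested genes (y axis, log scale) in each sham minipig (blue) and each DAC minipig (orange), ordered by step and then by mean level (x axis). FABP3 stands highest, at 426 to 578 FPKM, and the orange and blue points of most genes overlap.

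Of the 3 acyl-CoA synthetases listed for activation, ACSL1, the long-chain synthetase that feeds oxidation in muscle, had the most abundant RNA. ACSL1 was at 117, 104 and 95.7 FPKM in the sham samples, and at 60.1, 131 and 68.9 FPKM in the DAC samples. DAC replicates 4 and 6 lay below all sham samples and DAC replicate 5 lay above them, so that the log2 fold change was -0.36 in all 6 samples, with a 95% interval from -1.01 to 0.30. Without DAC replicate 5 it was -0.70 and passed the threshold. ACSL4, which prefers arachidonate, was at 9.55, 9.87 and 10.7 FPKM in the sham samples and at 11.4, 11.9 and 11.9 FPKM in the DAC samples. All DAC samples were above all sham samples, and the log2 fold change of 0.21 missed the threshold, with a 95% interval from -0.02 to 0.43. With the mitochondrially encoded genes left out and the rest rescaled, ACSL4 had a log2 fold change of 0.25 and passed the threshold. ACSL3, a synthetase of the endoplasmic reticulum and of lipid droplets, was between 2.57 and 3.999 FPKM in all samples.

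In the carnitine shuttle no gene was a DEG. CPT1B, the muscle form of the outer-membrane carnitine palmitoyltransferase, was at 97.6, 89.3 and 81.0 FPKM in the sham samples and at 83.2, 85.8 and 71.8 FPKM in the DAC samples. Its mean was 89.3 FPKM in the former and 80.3 FPKM in the latter, and the 95% interval of the log2 fold change was from -0.44 to 0.13. CPT1A, the liver form, was far lower, at 2.76, 3.52 and 8.05 FPKM in the sham samples and 1.69, 3.97 and 2.46 FPKM in the DAC samples. CPT1A varied most of the 39 genes, its highest value being 4.76 times its lowest. CPT2, the inner-membrane enzyme, was at 20.9 ± 2.92 FPKM in sham and 20.2 ± 5.68 FPKM in DAC minipigs (SD, n = 3 each). CRAT, the carnitine acetyltransferase that buffers acetyl-CoA, was at 53.0, 46.4 and 49.1 FPKM in the sham samples and at 33.9, 64.1 and 46.4 FPKM in the DAC samples. DAC replicate 4 was the lowest and DAC replicate 5 the highest of the 6 for both CRAT and CPT2.

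Malonyl-CoA holds back the outer-membrane transferase, and of the 2 tested genes whose enzymes make or remove it neither was a DEG in all 6 samples. ACACB, another acetyl-CoA carboxylase, was not analysed. ACACA, an acetyl-CoA carboxylase that makes malonyl-CoA, was at 10.1 ± 1.16 FPKM in sham and 11.99 ± 1.23 FPKM in DAC minipigs (SD, n = 3 each), with a 95% interval of the log2 fold change from -0.07 to 0.52. MLYCD, the decarboxylase that removes malonyl-CoA, was at 15.4, 7.33 and 13.9 FPKM in the sham samples and at 7.21, 8.46 and 7.61 FPKM in the DAC samples. The groups of MLYCD overlapped through sham replicate 2 alone. Its log2 fold change was -0.53 with a 95% interval from -1.12 to 0.05, and without sham replicate 2 it was -0.84 and passed the threshold.

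Of the 14 tested oxidation genes, 3 were downregulated DEGs, which is 21.4% against 5.27% of all genes tested, and none was upregulated, against 3.25%. The log2 fold change was below 0 in 7 and above 0 in 7. The 3 genes were HADH, DECR1 and ACADS. HADH (ENSSSCG00000009150), the dehydrogenase for medium- and short-chain hydroxyacyl-CoA, is at chromosome 8 from 113950033 to 114005512. It was at 57.2, 48.7 and 55.8 FPKM in the sham samples and at 37.1, 39.5 and 46.1 FPKM in the DAC samples, with no overlap. HADH had a log2 fold change of -0.39 ± 0.12 (SE), with a Benjamini-Hochberg adjusted P = 0.522 in limma. It missed the threshold without sham replicate 1, at -0.35, and without sham replicate 3, at -0.37.

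DECR1 (ENSSSCG00000006126), the dienoyl-CoA reductase needed for polyunsaturated chains, is at chromosome 4 from 46730461 to 46767427. It was at 36.4, 35.9 and 40.1 FPKM in the sham samples and at 33.4, 18.4 and 25.4 FPKM in the DAC samples. DAC replicate 5 was the lowest for DECR1, unlike for most other oxidation genes. DECR1 had a log2 fold change of -0.56 ± 0.20 (SE), with a Benjamini-Hochberg adjusted P = 0.553 in limma. It missed the threshold without DAC replicate 5, at -0.35, without DAC replicate 6, at -0.57, and without sham replicates 1, 2 or 3, at -0.58, -0.59 and -0.51.

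ACADS (ENSSSCG00000009916), the short-chain acyl-CoA dehydrogenase, is at chromosome 14 from 40624213 to 40659928. It was at 12.2, 8.80 and 11.2 FPKM in the sham samples and at 7.01, 7.27 and 9.12 FPKM in the DAC samples. The groups of ACADS overlapped, since DAC replicate 6 was above sham replicate 2. ACADS had a log2 fold change of -0.41 ± 0.15 (SE), with a Benjamini-Hochberg adjusted P = 0.563 in limma. It missed the threshold without sham replicate 1, sham replicate 3, DAC replicate 4 or DAC replicate 5, at -0.32, -0.38, -0.35 and -0.37.

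The dehydrogenases for longer chains differed by less than their spread. ACADVL, the very-long-chain acyl-CoA dehydrogenase, was at 174 ± 9.89 FPKM in sham and 170 ± 32.7 FPKM in DAC minipigs (SD, n = 3 each). ACADL, the long-chain enzyme, was at 102 ± 13.8 FPKM in sham and 102 ± 16.0 FPKM in DAC minipigs (SD, n = 3 each). ACADM, the medium-chain enzyme, was at 123 ± 21.4 FPKM in sham and 118 ± 15.8 FPKM in DAC minipigs (SD, n = 3 each). The 95% intervals of the log2 fold changes of these genes lay between -0.44 and 0.38.

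HADHA and HADHB encode the subunits of the mitochondrial trifunctional protein, which works on long chains. HADHA was at 151, 140 and 204 FPKM in the sham samples and at 169, 249 and 168 FPKM in the DAC samples, a log2 fold change of 0.24 with a 95% interval from -0.25 to 0.72. HADHB was at 122, 85.4 and 130 FPKM in the sham samples and at 102, 148 and 125 FPKM in the DAC samples, a log2 fold change of 0.16 with a 95% interval from -0.32 to 0.63. Both genes were highest in DAC replicate 5 and lowest in sham replicate 2. They lie on opposite strands of chromosome 3 and share 222 bases. ACAA2, the thiolase, was between 31.3 and 40.4 FPKM, ECHS1, the short-chain hydratase, between 23.0 and 33.6 FPKM, and ECI2, an isomerase for unsaturated chains, between 24.9 and 44.8 FPKM over the 6 minipigs.

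Of the electron carriers, ETFA was lower in all DAC samples. It was at 43.6, 45.7 and 41.8 FPKM in the sham samples and at 38.2, 41.0 and 37.3 FPKM in the DAC samples. The log2 fold change of ETFA was -0.17, which missed the threshold, and it passed when no variance was shared between genes. ETFDH, the dehydrogenase that hands the electrons to ubiquinone, was at 52.3 ± 4.57 FPKM in sham and 55.2 ± 16.1 FPKM in DAC minipigs (SD, n = 3 each), with 73.3 FPKM in DAC replicate 5.

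ETFB, the partner subunit of ETFA, followed neither group. It was at 42.2, 118 and 57.7 FPKM in the sham samples and at 102, 40.1 and 89.2 FPKM in the DAC samples. CLDND2, a gene on the same strand, overlaps all 15773 bases of the annotated ETFB gene on chromosome 6 from 58501808 to 58517580. CLDND2 was at 12.8, 0.158 and 10.2 FPKM in the sham samples and at 0.219, 15.2 and 0.0449 FPKM in the DAC samples. The 3 samples with CLDND2 above 10 FPKM were the 3 with the lowest ETFB, and the 3 with CLDND2 near 0 had the highest ETFB. How the deposited values divide the reads of the shared stretch is not given in the sources used here, and its part in the values of ETFB was not tested. The 95% interval of the log2 fold change of ETFB, from -0.97 to 1.18, was the widest of the oxidation genes.

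**Figure D3:**
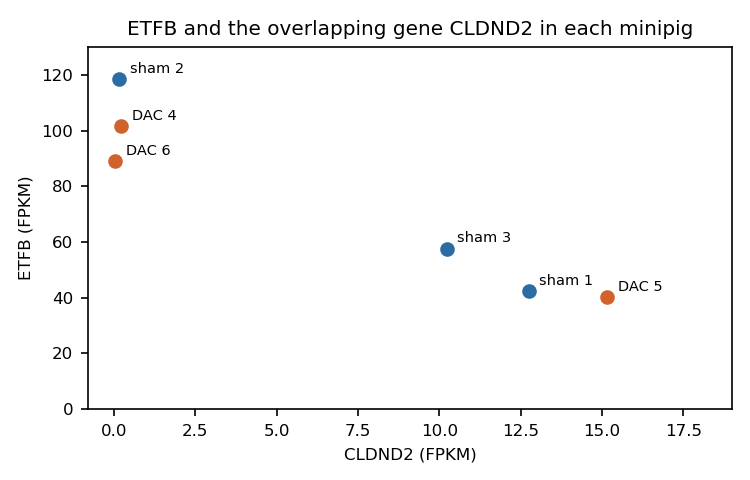
FPKM of ETFB (y axis) against FPKM of the overlapping gene CLDND2 (x axis), 1 point per minipig, with sham in blue and DAC in orange. Sham replicate 2 and DAC replicates 4 and 6 sit at the upper left, with ETFB at 89.2 FPKM or more, and the other 3 samples sit at the lower right, with ETFB at 57.7 FPKM or less.

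Of the 7 storage genes, 1 was a downregulated DEG, the first lipase of the droplet, or 14.3% against 5.27% of all genes. The log2 fold change was below 0 in 6 of the 7. PNPLA2 (ENSSSCG00000012841), the adipose triglyceride lipase, which starts the breakdown of stored triglyceride, is at chromosome 2 from 513076 to 518187. It was at 90.9, 77.0 and 96.8 FPKM in the sham samples and at 72.7, 62.4 and 52.0 FPKM in the DAC samples. There was no overlap, and the mean of PNPLA2 fell by 29.3%. PNPLA2 had a log2 fold change of -0.50 ± 0.15 (SE), with a Benjamini-Hochberg adjusted P = 0.511 in limma. It passed the threshold under all 14 alternatives tried but the one without sham replicate 3, where it was -0.43.

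Among the 43 genes, the lipases that act after PNPLA2 were not DEGs. LIPE, the hormone-sensitive lipase for diglyceride, was at 4.29, 2.17 and 5.24 FPKM in the sham samples and at 2.03, 4.72 and 2.37 FPKM in the DAC samples. MGLL, the monoglyceride lipase, was at 89.4, 72.9 and 132 FPKM in the sham samples and at 89.97, 73.2 and 76.2 FPKM in the DAC samples, with a 95% interval of the log2 fold change from -0.77 to 0.25. ABHD6, another monoglyceride lipase outside the 43 genes, was a downregulated DEG, at 23.5 ± 3.26 FPKM in sham and 17.9 ± 1.59 FPKM in DAC minipigs (SD, n = 3 each).

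DGAT1 and DGAT2, which add the last fatty acid to triglyceride, had log2 fold changes of -0.22 and -0.03, with 95% intervals from -0.59 to 0.15 and from -0.42 to 0.37, and the value of DGAT2 was 0.0026 with the mitochondrially encoded genes left out. PLIN2, a coat protein of lipid droplets, was at 6.55 ± 1.23 FPKM in sham and 5.87 ± 1.18 FPKM in DAC minipigs (SD, n = 3 each). PLIN5, the coat protein that ties droplets to mitochondria in oxidative tissue, was at 1.502, 4.62 and 1.89 FPKM in the sham samples and at 3.31, 2.42 and 2.43 FPKM in the DAC samples. The level of PLIN5 in sham replicate 2 was the highest of the 6, and without that sample the log2 fold change moved from 0.10 to 0.46 and passed the threshold.

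UCP2, an uncoupling protein of the inner mitochondrial membrane found in many cell types, was upregulated. The gene (ENSSSCG00000014833) is at chromosome 9 from 8333153 to 8365558, and it was at 4.16, 4.99 and 4.84 FPKM in the sham samples and at 5.51, 10.2 and 6.44 FPKM in the DAC samples. All DAC samples were above all sham samples, with DAC replicate 5 far above the rest. UCP2 had a log2 fold change of 0.53 ± 0.20 (SE), with a Benjamini-Hochberg adjusted P = 0.579 in limma. It missed the threshold without DAC replicate 5, at 0.30, and without sham replicates 1, 2 or 3, at 0.46, 0.57 and 0.55. UCP3, the muscle form, was listed at 0.0721, 0.430 and 0.237 FPKM in the sham samples and at 0, 0.677 and 0.320 FPKM in the DAC samples.

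UCP2 is also found in leukocytes. Among 8 tested leukocyte markers, of which CSF1R and CD163 were the most abundant, 1 was a downregulated DEG and none was upregulated. The downregulated share was 12.5% against 5.27% of all genes, and the upregulated share was 0% against 3.25%. The median log2 fold change was 0.091, with 3 of the 8 below 0, CSF1R and CD163 among them, and 5 above. The summed level of these markers was between 52.7 and 56.2 FPKM in the sham samples. It was between 45.8 and 60.9 FPKM in the DAC samples, highest in DAC replicate 5. Cardiomyocyte markers, 9 tested, had 1 downregulated DEG, RYR2, or 11.1% against 5.27% of all genes. Their median log2 fold change was 0.029, with 4 of the 9 below 0 and 5 above. Fibroblast markers, 10 tested with COL3A1 and DCN the most abundant, had 5 upregulated DEGs, or 50% against 3.25% of all genes. Their median log2 fold change was 0.35. The 9 tested genes listed for smooth muscle, with DES and RGS5 the most abundant, had 1 upregulated DEG, or 11.1% against 3.25% of all genes. The median log2 fold change of these 9 genes was 0.19. DES was at 869 FPKM in sham minipigs, against 10.7 FPKM for MYH11 and 27.2 FPKM for ACTA2. The paper measured desmin, its product, among the myofilament proteins, so this list is not particular to smooth muscle. The part of these cell types in the fatty acid gene values was not tested.

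**Figure D4:**
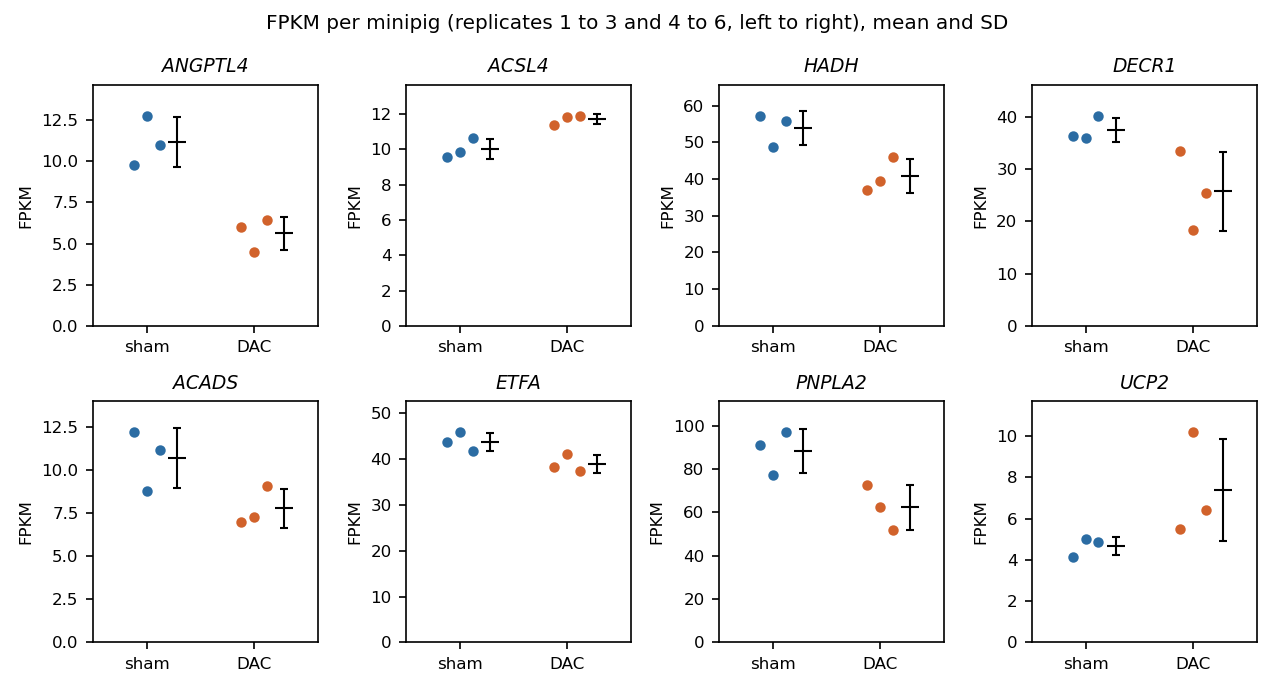
FPKM of the 8 fatty acid genes that were DEGs or whose groups did not overlap (y axes, from 0), with 1 point per minipig and the mean with its SD beside it. ANGPTL4, HADH, DECR1, ETFA and PNPLA2 lie lower in all DAC samples, ACSL4 and UCP2 lie higher, and in ACADS the groups overlap.

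The DAC minipigs differed from each other. DAC replicate 4 lay below all sham samples in 18 of the 39 genes and above them in 4, against 32.6% and 28.3% of all genes tested. DAC replicate 5 lay below them in 9 and above them in 14, against 34.9% and 24.4% of all genes. DAC replicate 6 lay below them in 12 and above them in 7, against 25.3% and 28.1% of all genes. The median difference from the sham mean over the 39 genes was -0.18 in DAC replicate 4, 0.035 in DAC replicate 5 and -0.089 in DAC replicate 6 on the log2(FPKM + 1) scale. The sham samples lay between -0.081 and 0.081 on this measure. Over the 14 oxidation genes alone it was -0.14, 0.096 and -0.14 in DAC replicates 4, 5 and 6.

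DAC replicate 5 held the highest value of the 6 samples in 10 genes, which were SLC27A6, ACSL1, CRAT, CPT2, HADHA, HADHB, ACAA2, ACADVL, ETFDH and UCP2. It also had the largest share of mitochondrially encoded genes, 32.8%, and the part of that share in these values was not tested. DAC replicate 4 held the lowest value in 14 genes, and 5 of those with the highest value in DAC replicate 5 had their lowest in DAC replicate 4, namely ACSL1, CRAT, CPT2, ACADVL and ETFDH. ANGPTL4, ACSL3, DECR1 and ETFB went against this order and were lowest in DAC replicate 5. Sham replicates 1 to 3 held the highest value in 7, 7 and 8 of the 39 genes and the lowest in 8, 6 and 1. How often each sample was highest or lowest over all genes tested was not counted. PDK4, the pyruvate dehydrogenase kinase that spares glucose when fatty acids are burned, also had its highest value in DAC replicate 5. It was at 117, 85.6 and 99.3 FPKM in the sham samples and at 52.6, 138 and 27.3 FPKM in the DAC samples. The coefficient of variation had a median of 14.0% among the sham samples and 17.8% among the DAC samples over the 39 genes, and of 12.2% and 14.7% over all genes tested.

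**Figure D5:**
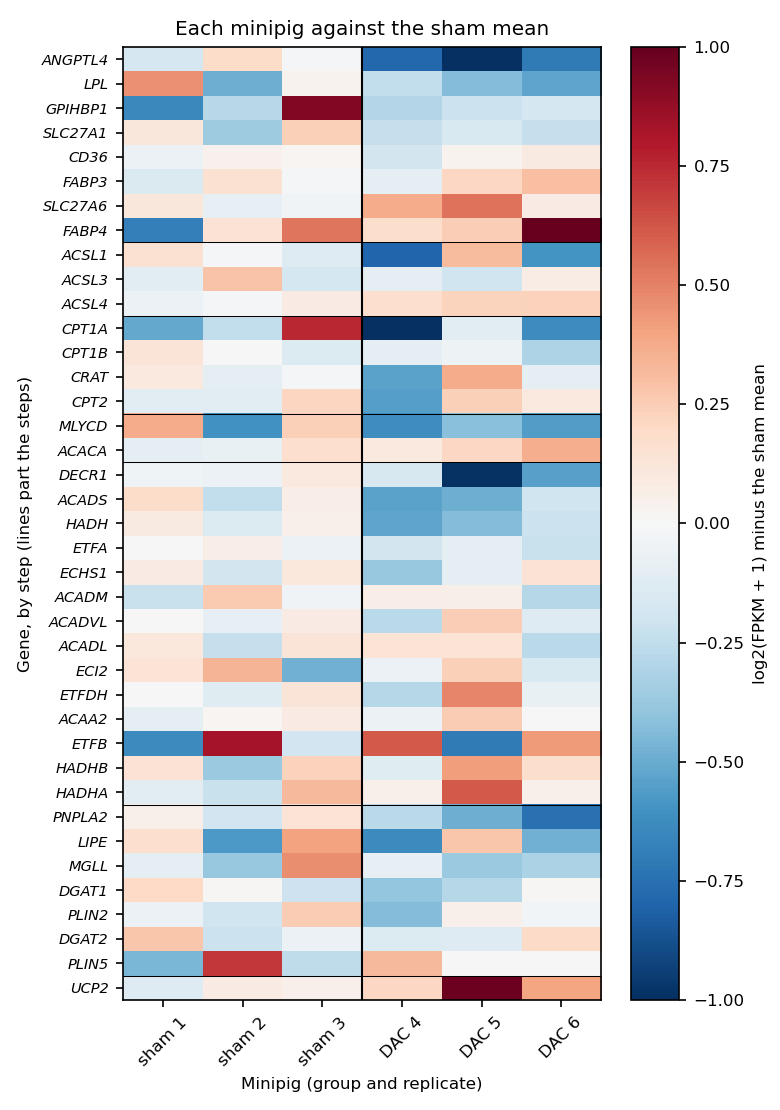
Difference of each minipig (columns) from the sham mean in log2(FPKM + 1) for each tested gene (rows, by step), with blue below and red above the mean and colours capped at -1 and 1. DAC 5 is red in 10 genes where it is the highest of the 6 samples, and DAC 4 is blue in many of the same rows.

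Ratios of related genes within a sample do not depend on the scaling between samples, and 9 pairs were compared. The SLC27A6 to SLC27A1 ratio was 0.0604, 0.0669 and 0.0460 in the sham samples and 0.103, 0.115 and 0.0741 in the DAC samples, with no overlap. Its log2 difference was 0.75 (exact permutation P = 0.10, two-sided, the smallest that 3 samples against 3 allow, and 0.771 after adjustment over the 9 pairs). In the other 8 pairs the groups overlapped. CPT1B exceeded CPT1A by 10.1 to 35.4 times in the sham samples and by 21.6 to 49.2 times in the DAC samples. FABP3 exceeded FABP4 by 38.8 to 92.1 times in the sham samples and by 29.2 to 56.2 times in the DAC samples. ACSL1 exceeded ACSL3 by 25.9 to 41.5 times in the sham samples and by 20.8 to 51.0 times in the DAC samples. HADHA to HADHB was the steadiest pair, between 1.24 and 1.64 in the sham samples and between 1.34 and 1.68 in the DAC samples. The ACACB to ACACA and UCP3 to UCP2 ratios were not computed, because ACACB was not analysed and UCP3 is listed at 0 in a sample.

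Another 133 genes of fatty acid metabolism were looked up, and 103 were tested. Of these, 4 were downregulated DEGs, which is 3.88% against 5.27% of all genes tested, and 1 was an upregulated DEG, which is 0.971% against 3.25%. The median log2 fold change of the 103 was -0.095, against -0.016 over all genes. The log2 fold change was below 0 in 74, or 71.8%, against 53.4% of all genes. All DAC samples lay below all sham samples in 13 of the 103, against 8.91% of all genes, and above them in 1, against 6.01%. ACSS1, the mitochondrial acetyl-CoA synthetase, was at 44.8, 45.2 and 38.4 FPKM in the sham samples and at 33.2, 25.1 and 32.4 FPKM in the DAC samples, a log2 fold change of -0.50 with a 95% interval from -0.83 to -0.17. GOT2, a mitochondrial aminotransferase also described as a fatty acid binding protein of the membrane, was at 301 ± 14.5 FPKM in sham and 252 ± 21.9 FPKM in DAC minipigs (SD, n = 3 each). LMF1 and ABHD6 were the other downregulated genes. The calls on these 103 genes were not repeated with samples left out.

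Of the regulators, PPARGC1A, the coactivator that drives mitochondrial gene programmes, was upregulated. It was at 24.4, 25.6 and 20.1 FPKM in the sham samples and at 34.0, 25.3 and 46.7 FPKM in the DAC samples, a log2 fold change of 0.54 (adjusted P = 0.584 from limma). Its groups overlapped through DAC replicate 5, the lowest DAC sample. PPARA, the nuclear receptor that turns on oxidation genes, was at 30.004 ± 2.25 FPKM in sham and 32.9 ± 6.41 FPKM in DAC minipigs (SD, n = 3 each). SLC25A20, the carnitine-acylcarnitine carrier, had a log2 fold change of -0.19 with a 95% interval from -0.54 to 0.16.

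Beside the fatty acid genes, 4 of 26 tested citrate cycle and pyruvate entry genes and 4 of 17 genes of branched-chain amino acid breakdown were downregulated DEGs, which is 15.4% and 23.5% against 5.27% of all genes tested, and 0 of 7 genes of ketone body use were. Their median log2 fold changes were -0.19, -0.25 and -0.11, against -0.024 for the 14 oxidation genes, whose median changed sign under the other scalings given above. The difference between these sets was not tested. ETFB, DGAT1, HADHA, HADHB, ETFDH, UCP2, ACACA, ACADVL, FABP3 and ECHS1 are the 10 fatty acid genes whose annotated position overlaps another gene of the table, and the library kit is not stated to keep the strand.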

How the data were processed

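Ventricular RNA of 3 sham and 3 DAC Tibetan minipigs was sequenced by the authors from NEBNext Ultra libraries, and no strand protocol is stated. The authors deposited 1 table of FPKM per gene and sample. The submitters' processing notes name HISAT2 and the build susScr11, and the program that computed FPKM is not given in the sources used here. Of 2440 genes without a symbol, 520 were given one by identifier. Genes with at least 1 FPKM in 3 or more samples were kept, and log2(FPKM + 1) was compared between groups with limma 3.58.1 in R 4.3.3, with moderated variance, no covariate and Benjamini-Hochberg adjustment over all genes tested. The threshold of an unadjusted P under 0.05 follows the study. Low FPKM were searched for whole-read steps, and at most 6 of 6830 low genes shared 1 ratio, so no counts were recovered. Within-sample ratios were compared by exact two-sided permutation. The fit was tested on simulated data. The fatty acid genes and all other gene lists were chosen with earlier results of these data known. All 43 fatty acid genes are accounted for, and of the other pathway genes those past the threshold were named. PPARA, PPARGC1A, PDK4, SLC25A20 and 1 gene not reported here were to be named whatever their P. The endothelial, fibroblast, cardiomyocyte, smooth muscle and leukocyte lists were named by their 2 most abundant genes, and other markers were named after their values were seen. Filters, scalings, the pseudocount, the variance, sample weights and each sample were varied.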

Additional observations from a re-analysis of the deposited data

How the results depend on the processing

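The 6 DEGs among the fatty acid genes were the same under no filter on low FPKM, a filter of at least 5 FPKM, median scaling, quantile normalization, a rescaling without mitochondrially encoded genes, a pseudocount of 0.1 and sample weights. ACSL4 joined them under quantile normalization and without mitochondrially encoded genes, giving 2 upregulated genes under each. With at least 5 FPKM, which tests fewer genes, 165 genes of the whole table were upregulated. When no variance was shared between genes, ACADS, DECR1 and UCP2 were lost and ACSL4 and ETFA were gained, with the log2 fold changes themselves the same. Values near 0 reversed, namely CD36 under median scaling (0.0049), quantile normalization (0.017) and without mitochondrially encoded genes (0.024), ACADVL (0.027) and ACADM (0.048) under quantile normalization, DGAT2 without mitochondrially encoded genes (0.0026) and ACADL with sample weights (-0.056). The cause was not tested. With each sample left out in turn, the fatty acid genes had 1 to 7 downregulated and 0 to 2 upregulated DEGs, the whole table had 359 to 674 and 241 to 470, and the median log2 fold change of the fatty acid genes ran from -0.19 to -0.056. The same omissions moved log2 fold changes across 0, from -0.027 to 0.13 for ACAA2, from -0.11 to 0.14 for ACADL, from -0.16 to 0.080 for ACADM, from -0.20 to 0.061 for ACADVL, from -0.16 to 0.070 for ACSL3, from -0.075 to 0.063 for CD36, from -0.23 to 0.17 for CPT2, from -0.31 to 0.14 for CRAT, from -0.13 to 0.11 for DGAT2, from -0.24 to 0.027 for ECHS1, from -0.23 to 0.18 for ECI2, from -0.21 to 0.53 for ETFB, from -0.18 to 0.21 for ETFDH, from -0.55 to 0.24 for GPIHBP1, from -0.029 to 0.30 for HADHB, from -0.24 to 0.011 for PLIN2 and from -0.12 to 0.46 for PLIN5. Log2 ratios moved from -0.74 to 0.039 for ETFA to ETFB, from -0.044 to 0.19 for HADHA to HADHB and from -0.50 to 0.22 for PNPLA2 to LIPE. With 3 minipigs a group and unknown depth, no adjusted P passed 0.05 in the 6 samples, and 1 gene of the table did without sham replicate 3 and 1 gene did when DAC replicate 6 was omitted. No paired analysis was made, because different minipigs were assigned at random to sham or DAC surgery.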
